A study of Drosophila melanogaster and Drosophila mauritiana and Drosophila simulans with 22 samples.

Results

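Microtubule motors and axoneme genes were followed through the testes of 3 Drosophila hybrids and 4 species. The set was defined by gene symbol: rows of the array with 1 symbol beginning with Dhc, Dnai, Dic, Dlic, Sdic, Dnal, robl, Klp and a digit, Khc, Klc, Kif, Rsph, Cfap or IFT were taken. This rule found 20 of 6793 genes, and no measured value entered it. By known role 18 of them belong to dyneins, radial spokes, kinesins or intraflagellar transport. The other 2, Dic1 and Dic3, are mitochondrial dicarboxylate carriers that share only the letters of their symbol with the dynein intermediate chains. They are described separately, and counts are given with and without them.

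Motor proteins walk along microtubules on ATP, dyneins toward the minus end and most kinesins toward the plus end. In the axoneme, the microtubule core of a motile cilium or sperm tail, dynein arms slide neighbouring doublets past each other and radial spokes pass signals from the centre to the arms. Drosophila builds motile axonemes only in sperm and in a class of sensory neurons, and the sperm axoneme is assembled in the cytoplasm without intraflagellar transport. Kinesins of the germline act in the meiotic spindle and at centrioles. Males of the crosses studied here are known to be sterile.

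The hybrids all had D. simulans mothers (strain 14021-0251.2, 10 females with 15 males per vial) and are called here by the father's species. The melanogaster hybrid had D. melanogaster fathers (strain 14021-0231.00), the mauritiana hybrid D. mauritiana fathers (strain 14021-0241.1), and the sechellia hybrid D. sechellia fathers. The species were D. mauritiana, D. sechellia (given as strain #12), D. simulans and D. melanogaster, the other 3 in the strains above. On each array, RNA amplified from a pool of 200 testes (dissected free of accessory glands from 4 day old males raised at 25 °C) was hybridised with RNA of whole D. melanogaster males of strain 14021-0231.00. Of the 22 arrays 4 were of D. mauritiana, and each other hybrid or species had 3. Each value below is a log ratio, read as log2 of testis over whole male, centred on the median of its array, so that 1 unit is a 2-fold difference and 0, called the whole-male level below, is the ratio of the median row.

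Not every array was of the same quality. Duplicate spots of the sechellia arrays differed with an SD of 1.17 to 1.74, against 0.20 to 0.47 elsewhere, and those arrays correlated with each other at only 0.30 to 0.65 across genes, which are not independent replicates. Deposited values of exactly 0 numbered 53, 2703 and 2526 on sechellia arrays 1, 2 and 3, against 0 to 4 on each other array. They were kept as values in the fit over all arrays. Array 2 of the sechellia hybrid correlated with its 2 companions at 0.36 and 0.41. Arrays 1 and 2 were very close in melanogaster (r = 0.97) and in simulans (r = 0.98). In each pair 1 RNA may have been run on both arrays. The labels are silent on this. Arrays 1 and 3 of the sechellia hybrid (r = 0.83) were no closer than those of the melanogaster hybrid (0.87 to 0.92). They were averaged as a close pair too. Counts that move when these pairs are averaged are therefore given with both values. The labels call the replicates independent without saying whether the flies came from separate cultures, so p-values measure the spread between these arrays. Probes were of D. melanogaster genes. Between species, or between a hybrid and a single parent, a lower level and a weaker match to the probe therefore cannot be told apart. The part of probe match in hybrid levels below both parents was not tested.

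A gene was tested only if 2 or more arrays of every group gave it a value, as they did for 5107 genes and for 16 of the 20 (14 of the 18 without the carriers). Of the 20 genes 10 had a value on every array. The 4 untested genes, Dhc16F, IFT46, Klp68D and Klp98A, had a value on only 1 array of the sechellia hybrid, and Klp98A also on only 1 of mauritiana. Changes were called at an adjusted p under 0.05 in limma, with p-values adjusted over all 5107 genes. Each SE below is that of the fit. It rests on 1 spread per gene estimated from all arrays in the fit, not on the scatter of the named arrays alone. Each clone was spotted 2 times. On the arrays other than sechellia the 2 spots of these genes differed by a median of 0.22 over 341 pairs, and on the sechellia arrays by 0.44 over 52 pairs.

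**Figure D1:**
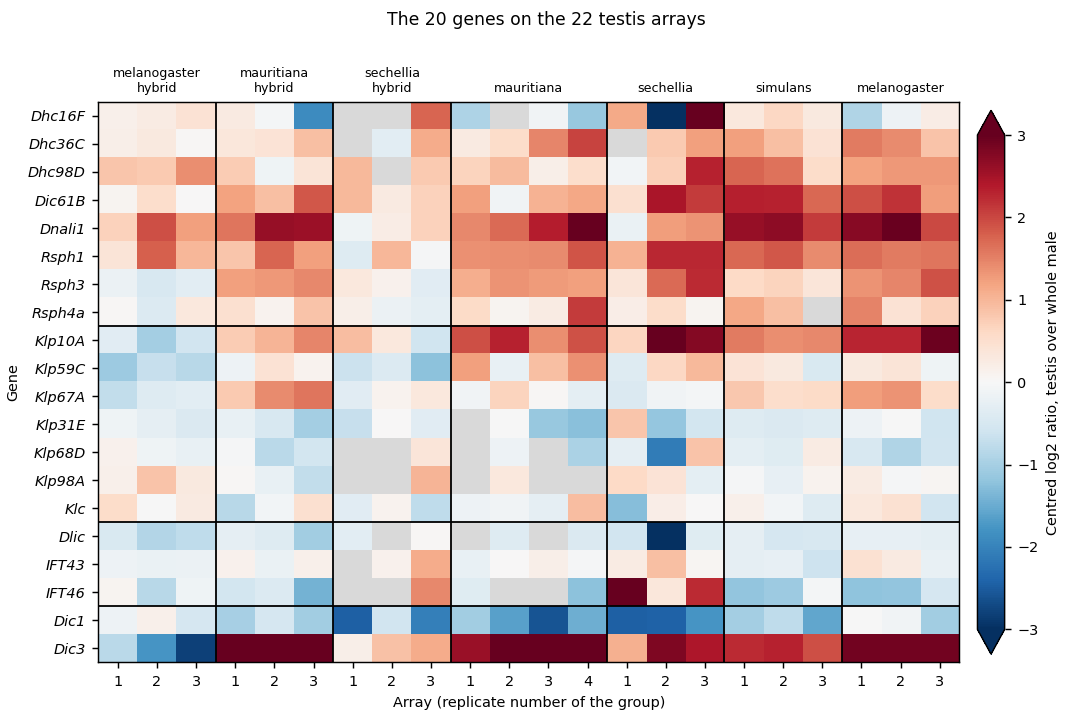
Centred log2 ratio of testis over whole male for the 20 genes (rows, with axonemal genes, kinesins, cytoplasmic dynein and transport genes, and mitochondrial carriers separated by lines) on the 22 arrays (columns, grouped by hybrid or species). Grey cells have no value and colours saturate at 3 and -3. Dnali1, Klp10A and Dic3 are red in all 3 melanogaster arrays, while the melanogaster hybrid columns are pale or blue for Klp10A and Dic3.

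The first comparison asks which of these genes the testis favours over the whole fly in D. melanogaster. Axonemal genes gave most of the calls: 7 of 7 tested members rose, with differences of 0.87 to 2.56 and a median of 1.57. Among kinesins 2 of 5 rose, and of the cytoplasmic dynein and transport genes 0 of 2. Over all 16 tested genes 10 were higher and 0 lower, or 9 of 14 without the carriers. The background was high, since 44.3% of all tested genes were called and 30.4% were higher. The median difference of the tested members was 1.16, against 0.18 over all genes.

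Dnali1, named after the light intermediate chain of axonemal dynein in mammals, had 2.72, 2.96 and 1.99 on the 3 melanogaster arrays. All 3 lay far above the whole-male level, and their mean was 2.56 ± 0.35 (SE of the fit, adjusted p = 7.588e-06). Dic61B, an intermediate chain of axonemal dynein, had 1.93, 2.16 and 1.26 on the same arrays. Its mean of 1.78 ± 0.33 also passed the test (adjusted p = 0.0001942). The heavy chains, which carry the ATPase motor, were less uniform. Dhc36C averaged 1.28 ± 0.32 (adjusted p = 0.003193) and Dhc98D 1.27 ± 0.34 (adjusted p = 0.004615), and both rose. Dhc16F, the untested heavy chain, had -0.90, -0.14 and 0.22 on the 3 arrays, on both sides of the whole-male level.

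Radial spoke genes rose as well. Their names come from the spoke heads and stalks of Chlamydomonas and mammals. Rsph1 had 1.67, 1.57 and 1.61 on the melanogaster arrays, a mean of 1.61 ± 0.30 (SE, adjusted p = 0.000196) with the smallest spread of the spoke genes. Rsph3 had 1.34, 1.46 and 1.91, a mean of 1.57 ± 0.26 (adjusted p = 6.316e-05). Both were above 0 on every array. For Rsph4a the values were 1.49, 0.44 and 0.69, and its mean of 0.87 ± 0.31 (adjusted p = 0.02967) was no longer called without melanogaster array 1 or array 3, without centring, or with the close array pairs averaged. The 0.44, on array 2, is the mean of duplicate spots that disagreed, 1.82 and -0.94.

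Among the kinesins a pair with roles in spindles and centrioles was high and the other 3 tested did not pass. Klp10A, a kinesin-13 that takes microtubules apart at spindle poles and limits centriole length, had 2.29, 2.30 and 2.94 on the melanogaster arrays (mean 2.51 ± 0.37, SE, adjusted p = 1.479e-05). Klp67A, a kinesin-8 that sets spindle length and builds the central spindle in male meiosis, had 1.26, 1.35 and 0.55 (mean 1.05 ± 0.24, adjusted p = 0.001265). These 2 rose on every array, by different amounts. Klp59C, the other kinesin-13, had 0.30, 0.38 and -0.13, which did not pass (0.18 ± 0.30, 95% interval -0.44 to 0.81). Klp31E, of the kinesin-4 family, averaged -0.25 ± 0.31 and Klc, the light chain of kinesin-1, 0.07 ± 0.32. Neither passed the test. Klp98A, an endosomal kinesin-3, ranged between -0.03 and 0.24 and was not tested.

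The genes of general transport did not share the high levels of the axonemal ones. Dlic, the light intermediate chain of cytoplasmic dynein, had -0.24, -0.24 and -0.30, slightly below the whole-male level on every array, and did not pass (-0.26 ± 0.57, SE). IFT43, of the retrograde intraflagellar transport complex, had 0.46, 0.28 and -0.21 and did not pass either. When the 6 arrays of sechellia and its hybrid were left out, a fit added after seeing the data, 3 of the 4 untested genes could be tested with 6047 genes in all. In that fit 3320 of the 6047 genes were called in melanogaster testes, in either direction. There IFT46, of the anterograde complex, was lower in testis than in whole males (-0.97 ± 0.28, adjusted p = 0.006892), as was Klp68D, a subunit of the kinesin-2 that drives that complex (-0.49, -0.90 and -0.58 on the 3 arrays, mean -0.66 ± 0.23, adjusted p = 0.01969). Dhc16F did not pass in that fit (-0.27 ± 0.32, adjusted p = 0.4783).

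The carriers differed from each other. Dic3 had 2.90, 2.91 and 2.90 on the melanogaster arrays, nearly the same value 3 times, and rose (2.90 ± 0.38, SE, adjusted p = 4.193e-06). Dic1 had -0.01, -0.10 and -1.03 and did not pass (-0.38 ± 0.33).

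**Figure D2:**
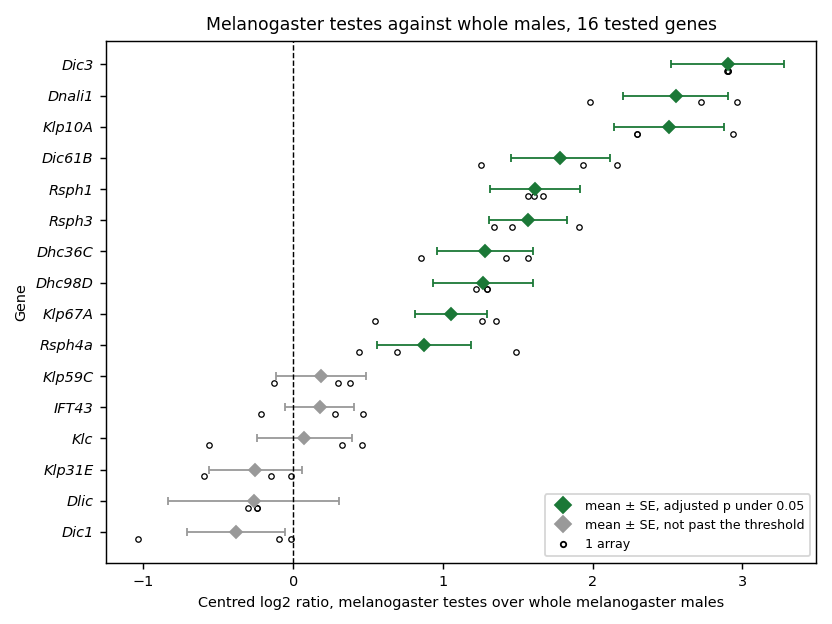
Centred log2 ratio of melanogaster testes over whole melanogaster males (x axis) for the 16 tested genes (y axis), with the mean ± SE of the fit as a diamond, green where the adjusted p was under 0.05, and the 3 arrays as open circles. The 7 axonemal genes, Klp10A, Klp67A and Dic3 lie above 0 on every array, and the means of the other 6 genes lie between -0.38 and 0.18.

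Genes that work with these proteins were followed in lists chosen, like the members, with earlier results of these data known. Of 20 tested axoneme assembly and beat genes 17 rose and 0 fell in melanogaster testes, with a median of 1.43. Over all tested genes 30.4% were higher. Tektin-C, a filament protein of the doublets, was at 3.05 ± 0.32 (SE, adjusted p = 4.523e-07) and Zmynd10, which helps to assemble dynein arms, at 3.03 ± 0.39 (adjusted p = 4.085e-06). Of 10 tested dynactin, dynein light chain and cofactor genes 3 rose, against 30.4% of all tested genes, and the median was -0.09. They included Cdlc2, a dynein light chain of the LC8 family (3.54 ± 0.34, adjusted p = 1.326e-07), and mil, which is by known role a nucleosome assembly protein (2.72 ± 0.31, adjusted p = 1.012e-06).

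The other lists are small, and 30.4% of all tested genes were higher. Of 6 other kinesin and kinesin cofactor genes 2 rose: Miro, which links mitochondria to kinesin-1 (1.54 ± 0.25, adjusted p = 5.081e-05), and tum, a partner of a cytokinesis kinesin (1.17 ± 0.25, adjusted p = 0.0008495). Among 5 intraflagellar transport and transition zone genes 1 rose, Oseg1 of the retrograde complex (1.43 ± 0.30, adjusted p = 0.0007066), and dila, a basal body protein, did not pass (0.61 ± 0.33). Of 7 centriole genes 3 rose, led by Cep97, a protein of the centriole cap (3.05 ± 0.30, adjusted p = 2.163e-07), and SAK, the kinase that starts centriole duplication (1.05 ± 0.29, adjusted p = 0.006205).

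Few of these genes were called between species in the fit over all arrays. Between simulans and melanogaster testes 0 of 16 were called in limma, against a background of 1.06% of all genes, and 1 had an unadjusted p under 0.05. Rsph3 was the one closest to a call, with 0.60, 0.66 and 0.37 on the simulans arrays against 1.34, 1.46 and 1.91 on the melanogaster arrays. The groups did not overlap, but the difference of -1.03 ± 0.37 (SE) had an adjusted p of 0.2198. Klp10A was next, with 1.57, 1.40 and 1.45 in simulans against 2.29, 2.30 and 2.94 in melanogaster. Its groups did not overlap either (-1.04 ± 0.52, adjusted p = 0.4671). Same-numbered arrays of these 2 species deviated together from their group means (r = 0.17, 0.20 and 0.29 across genes). Differently numbered arrays were not compared, and arrays 1 and 2 are close in both species, so pairing by number is not shown. With the replicate number as a block in a fit of these 6 arrays alone, added after seeing the data, 5 of the 16 were lower in simulans and 0 higher, where 27.6% of all genes were called and 19.9% lower. They were Klp10A (adjusted p = 0.01228), Rsph3 (adjusted p = 0.01406), Dic1, Dic3 and IFT43. The same block over all 22 arrays gave 0 calls, and so did averaging the close pairs, which are arrays 1 and 2 of both species.

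Mauritiana and melanogaster testes also gave 0 calls of 16 in limma, where 6.64% of all genes were called, and 3 members had an unadjusted p under 0.05. Klp67A had -0.10, 0.68, 0.05 and -0.30 in mauritiana, against 1.26, 1.35 and 0.55 in melanogaster. The highest mauritiana array lay above the lowest melanogaster array, and the difference of -0.97 ± 0.32 had an adjusted p of 0.06904. Dic1 had -1.05, -1.63, -2.58 and -1.46 in mauritiana and -0.01, -0.10 and -1.03 in melanogaster. Here the highest mauritiana array was just below the lowest melanogaster array (-1.30 ± 0.44, adjusted p = 0.07727).

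Set against simulans, mauritiana testes gave 0 calls of 16 in limma with a background of 11.0%, and 2 members had an unadjusted p under 0.05. Dic61B had 1.24, -0.11, 1.05 and 1.16 in mauritiana, all below the 2.33, 2.30 and 1.73 in simulans (-1.29 ± 0.44, SE, adjusted p = 0.0617). Dic3 had 2.58, 3.57, 3.91 and 4.40 in mauritiana, all above the 2.23, 2.32 and 1.95 in simulans (1.45 ± 0.50, adjusted p = 0.0634). Without the sechellia arrays in the fit these calls changed: Rsph3 then passed between simulans and melanogaster, Klp67A and Dic1 between mauritiana and melanogaster, and Dic61B and Dic3 between mauritiana and simulans. The calls over all 5107 genes rose too, to 185, 824 and 1110 in that order, from 54, 339 and 563.

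Sechellia testes had 3 of 16 members lower than melanogaster and 0 higher, against a background of 26.1% of genes lower and 33.7% called. Dnali1 had -0.21, 1.24 and 1.35 in sechellia against 2.72, 2.96 and 1.99 in melanogaster. All sechellia arrays lay below all melanogaster arrays (-1.76 ± 0.50, SE, adjusted p = 0.01006). Klp67A had -0.43, -0.12 and -0.07 in sechellia, against 1.26, 1.35 and 0.55 in melanogaster (-1.26 ± 0.34, adjusted p = 0.007686). Its sechellia arrays were close together in spite of their noise. Dic1 was lower too, with -2.45, -2.42 and -1.77 in sechellia against -0.01, -0.10 and -1.03 in melanogaster (-1.83 ± 0.47, adjusted p = 0.005433). With the close pairs averaged, or with the spread of these arrays alone, only Dic1 was called. Without melanogaster array 2, Dnali1 was not called, nor was Klp67A without centring or Dic1 after quantile normalization. The largest scatter within a group was in sechellia: Dhc16F had 1.15, -4.18 and 4.84, and IFT46 had 6.35, 0.35 and 2.24, so their sechellia levels are not interpreted.

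The hybrid males were set against the mean of their parents. The melanogaster hybrid had the most calls of the 3 hybrids, all of them lower. Of 16 tested genes 7 were lower and 0 higher, 6 of 14 without the carriers, against a background of 32.0% called and 19.6% lower. The median difference of the 16 was -0.93, against 0.03 over all genes. By class, 3 of 7 axonemal genes, 3 of 5 kinesins and 0 of 2 cytoplasmic dynein and transport genes were lower. With the close array pairs averaged 5 of the 16 were lower, and 1276 of all 5107 genes were called in either direction. In bulk testes, fewer cells that express a gene and less of its RNA per cell cannot be told apart.

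Klp10A changed most among the motor genes. It had -0.34, -1.03 and -0.58 in the melanogaster hybrid, against 1.57, 1.40 and 1.45 in simulans and 2.29, 2.30 and 2.94 in melanogaster. The hybrid arrays were below the whole-male level and every parental array above it. The difference from the mean of the parents was -2.64 ± 0.45 (SE, adjusted p = 9.094e-05), and Klp10A was below simulans (-2.12, adjusted p = 0.004213) as well as melanogaster (-3.16, adjusted p = 6.648e-05). With 1 array row per gene in place of the mean of its rows, the call against simulans was lost (adjusted p = 0.07948).

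Klp67A followed the same order. Its values were -0.73, -0.38 and -0.32 in the melanogaster hybrid, against 0.82, 0.53 and 0.57 in simulans and 1.26, 1.35 and 0.55 in melanogaster. No hybrid array reached a parental one (-1.32 ± 0.29, adjusted p = 0.001303), and it was below simulans (-1.12, adjusted p = 0.01888) as well as melanogaster (-1.53, adjusted p = 0.001388). Against simulans alone it was not called with the close pairs averaged or without simulans array 1 or hybrid array 1. Klp59C, which the parental testes held near the whole-male level, had -1.09, -0.68 and -0.84 in the hybrid, against 0.41, 0.29 and -0.47 in simulans and 0.30, 0.38 and -0.13 in melanogaster. It passed narrowly (-1.0 ± 0.37, adjusted p = 0.04198) and the call was lost with the close pairs averaged and when 1 array was left out, for each hybrid array and for arrays 1 and 2 of both parents. The other tested kinesins did not pass: Klp31E differed by 0.05 (95% interval -0.74 to 0.85) and Klc by 0.28 (-0.53 to 1.09).

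Of the axonemal dynein genes, Dic61B fell furthest. It had 0.07, 0.53 and 0.02 in the melanogaster hybrid, against 2.33, 2.30 and 1.73 in simulans and 1.93, 2.16 and 1.26 in melanogaster. All hybrid arrays were below all parental arrays (-1.74 ± 0.41, SE, adjusted p = 0.00202), and the gene was below simulans (-1.91, adjusted p = 0.004415) and melanogaster (-1.58, adjusted p = 0.01341). Against melanogaster alone it was not called with the close pairs averaged or without melanogaster array 2 or hybrid array 3. Dnali1 had 0.70, 1.95 and 1.23 in the hybrid, against 2.62, 2.67 and 2.11 in simulans and 2.72, 2.96 and 1.99 in melanogaster. It stayed above the whole-male level in the hybrid while lying below every parental array (-1.22 ± 0.43, adjusted p = 0.03402). That call was lost with the close pairs averaged and without any 1 of melanogaster 1 or 2, simulans 1 or 2, or hybrid array 1 or 3.

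The heavy chains gave no call. Dhc36C had 0.18, 0.30 and 0.04 in the melanogaster hybrid, against 1.23, 0.90 and 0.44 in simulans and 1.57, 1.42 and 0.85 in melanogaster. The hybrid arrays were the lowest, yet the difference of -0.89 ± 0.39 had an adjusted p of 0.09379 (0.04053 in the fit without sechellia and its hybrid). Dhc98D had 0.84, 0.79 and 1.40 in the hybrid, against 1.73, 1.62 and 0.54 in simulans and 1.22, 1.29 and 1.29 in melanogaster. These values overlapped (-0.27, 95% interval -1.13 to 0.59). Dhc16F, untested here, ranged between 0.14 and 0.44 in the hybrid, against 0.29 to 0.62 in simulans and -0.90 to 0.22 in melanogaster.

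The 3 radial spoke genes differed among themselves in the same hybrid. Rsph3 had -0.18, -0.47 and -0.31, against 0.60, 0.66 and 0.37 in simulans and 1.34, 1.46 and 1.91 in melanogaster, and was lower (-1.38 ± 0.32, adjusted p = 0.00199). It was below melanogaster (-1.89, adjusted p = 0.0004308), while against simulans the difference of -0.87 did not pass (adjusted p = 0.1035). Rsph4a had 0.04, -0.40 and 0.31 in the hybrid, 1.15 and 0.90 on 2 simulans arrays, and 1.49, 0.44 and 0.69 in melanogaster. Its hybrid arrays were the lowest, and it did not pass (-0.96 ± 0.40, adjusted p = 0.0744). The nearest parental value, 0.44, is the mean of duplicate spots that disagreed (1.82 and -0.94). Rsph1 had 0.38, 1.79 and 0.99 in the hybrid, against 1.72, 1.86 and 1.41 in simulans and 1.67, 1.57 and 1.61 in melanogaster. One hybrid array lay among the parental ones, and the difference of -0.58 did not pass (95% interval -1.35 to 0.18).

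Rsph3 was read by 2 clones that did not give the same level. Clone 1 averaged -0.60 in the melanogaster hybrid, against 0.99 in simulans and 2.04 in melanogaster, and clone 2 averaged 0.08, against 0.10 in simulans and 1.11 in melanogaster. Both clones read lower in the hybrid than in melanogaster, while against simulans clone 1 read lower and clone 2 nearly the same.

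The transport genes did not pass the test. Dlic differed by -0.36 (95% interval -1.83 to 1.11) and IFT43 by -0.08 (-0.67 to 0.51). IFT46 (0.09, -0.84 and -0.12) and Klp68D (0.13, -0.12 and -0.22) were not tested with all groups. In the fit without sechellia and its hybrid, IFT46 differed by 0.58 (adjusted p = 0.2012) and Klp68D by 0.33 (adjusted p = 0.3847). Klp98A had 0.15, 0.86 and 0.29 in the hybrid, and was tested in neither fit.

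Dic3, the carrier, showed the largest change of the 20 genes. It had -0.81, -1.76 and -2.81 in the melanogaster hybrid, against 2.23, 2.32 and 1.95 in simulans and 2.90, 2.91 and 2.90 in melanogaster. Every hybrid array was below the whole-male level and every parental array well above it (-4.33 ± 0.46, SE, adjusted p = 3.43e-07). Dic1 had -0.15, 0.15 and -0.49 in the hybrid and differed by 0.58, which did not pass (95% interval -0.26 to 1.42).

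Counted by arrays, 9 of the 16 genes had every melanogaster hybrid array below every array of both parents, 8 of 14 without the carriers, against 22.7% of all genes. For 0 of the 16 were all hybrid arrays above both parents, against 21.1% of all genes. Against simulans 4 of the 16 were lower and 0 higher (23.6% of all genes called, 13.9% lower), and against melanogaster 5 were lower and 0 higher (30.4% called, 20.1% lower). The 4 genes below both were Klp10A, Klp67A, Dic61B and Dic3, where 20.1% of all genes lay outside both parents. With the close pairs averaged, Klp10A and Dic3 were left.

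**Figure D3:**
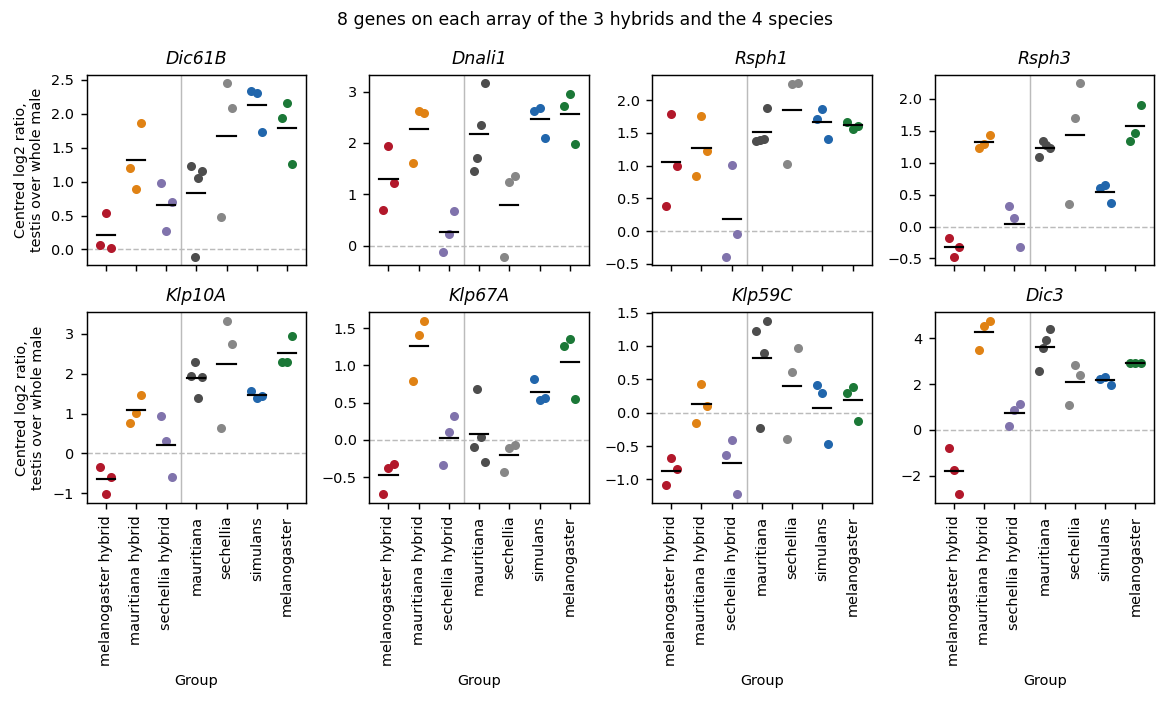
Centred log2 ratio of testis over whole male (y axis, a separate scale for each gene) of 8 genes on every array (points) in the 3 hybrids and the 4 species (x axis), with the group mean as a black line and the whole-male level dashed. The 3 melanogaster hybrid points lie below all simulans and melanogaster points in every panel except that of Rsph1.

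Most axoneme assembly and beat genes were lower in the melanogaster hybrid too. Of 20 such genes 12 were lower and 0 higher, with a median of -1.95. Over all tested genes 19.6% were lower. Dnaaf6, a dynein arm assembly factor, differed by -4.80 ± 0.50 (SE, adjusted p = 2.646e-07) and Tektin-C by -4.41 ± 0.40 (adjusted p = 3.898e-08). The 12 included Adk1, an adenylate kinase (-4.08), and Mst77F, known as a sperm chromatin protein (-2.03), whose known roles lie outside the axoneme's structure. Of 10 dynactin, light chain and cofactor genes 3 were lower: mil (-5.03 ± 0.38, adjusted p = 5.387e-09), Cdlc2 (-5.27 ± 0.41, adjusted p = 7.882e-09) and sw, the intermediate chain of cytoplasmic dynein (-1.56 ± 0.48). The list's median was 0.22, of the opposite sign, since its other genes lay near or above 0.

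The other lists are small, and 19.6% of all tested genes were lower. Among the other kinesins and cofactors 2 of 6 were lower, Miro (-1.82 ± 0.31, adjusted p = 9.094e-05) and feo, a bundler of spindle microtubules (-0.81 ± 0.31, adjusted p = 0.04854). Of 5 intraflagellar transport and transition zone genes 1 was lower, Mks1 of the transition zone (-1.50 ± 0.40, adjusted p = 0.005433), and dila did not pass (-0.70 ± 0.41). Of 7 centriole genes 3 were lower, with Cep97 at -3.34 ± 0.37 (adjusted p = 5.336e-07) and SAK at -1.23 ± 0.36 (adjusted p = 0.01163).

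Markers of other cells and of the germline moved in the same arrays. The median of 8 germline markers was -2.41 to -1.96 on the melanogaster hybrid arrays, against 1.52 to 1.66 in simulans and 2.10 to 2.32 in melanogaster. Of these 8 markers 7 fell below the parental mean, and the spermatogonial gene bam did not (0.86 ± 0.54). Over all tested genes 32.0% were called and 19.6% were lower. The 2 accessory gland markers had medians of 0.55 to 1.40 on the hybrid arrays, against -3.37 to -3.12 in simulans and -4.96 to -3.91 in melanogaster, and 2 of 2 were higher, although the labels give testes without accessory glands. Of the other marker lists, 2 of 3 tested eye and nerve genes, 1 of 4 gut genes and 1 of 2 fat body and blood genes were higher and 1 of 4 muscle genes was lower, and the somatic testis marker eya did not pass (0.31 ± 0.30). The part of these marker shifts in the lower motor and axoneme levels was not tested. The median of the 14 tested motor, axoneme and transport genes was -0.23 to -0.04 on the hybrid arrays, against 0.44 to 0.98 in simulans and 0.77 to 1.32 in melanogaster.

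**Figure D4:**
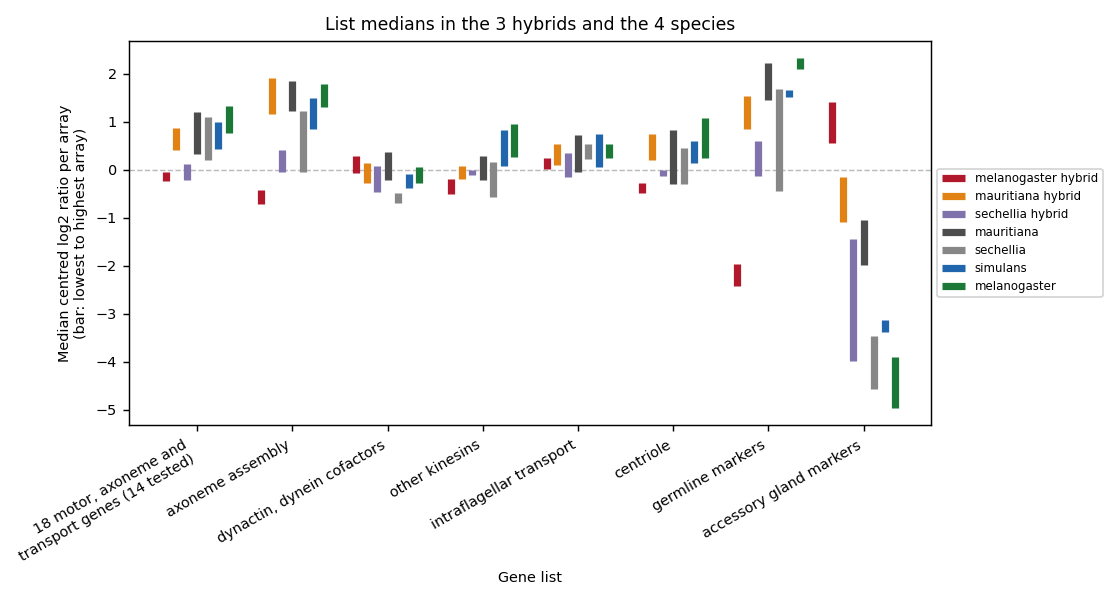
Median centred log2 ratio per array (y axis) of the 14 tested motor, axoneme and transport genes, of 5 lists of related genes and of 2 marker lists (x axis), in the 3 hybrids and the 4 species. Each bar runs from the lowest to the highest array of a group. In the melanogaster hybrid the members and the axoneme assembly genes lie below both parents, as do the germline markers, while the accessory gland markers lie above.

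The mauritiana hybrid, by contrast, gave 0 calls of 16 against the mean of its parents in limma, where 2.33% of all genes were called, and 2 members had an unadjusted p under 0.05. Those were Klp67A and Dic3, both with positive differences. Klp67A had 0.79, 1.41 and 1.60 in the mauritiana hybrid, against -0.10, 0.68, 0.05 and -0.30 in mauritiana and 0.82, 0.53 and 0.57 in simulans. It was 0.90 ± 0.29 above the mean of the parents (SE, adjusted p = 0.105), and against mauritiana alone it was higher (1.18 ± 0.32, adjusted p = 0.03669, 4.50% of all genes called and 2.74% higher). Against simulans the difference was 0.63 (adjusted p = 0.3438), with 1 hybrid array below the highest simulans array.

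Dic3 had 3.47, 4.55 and 4.75 in the mauritiana hybrid, against 2.58, 3.57, 3.91 and 4.40 in mauritiana and 2.23, 2.32 and 1.95 in simulans. Every hybrid array exceeded every simulans array, while those of mauritiana overlapped. The difference from the mean of the parents was 1.36 ± 0.45 (adjusted p = 0.1178), that from simulans 2.09 ± 0.53 (adjusted p = 0.03278, 3.60% of all genes called and 2.76% higher). Both calls against a single parent were lost without centring, with the close pairs averaged and without hybrid array 2 or 3. That of Klp67A was also lost with the replicate number as a block (1.06, adjusted p = 0.0823), with 1 row per gene, with the spread of the arrays compared alone and without mauritiana array 1, 3 or 4. That of Dic3 was also lost without any 1 of the simulans arrays. In the fit without sechellia and its hybrid both Klp67A (adjusted p = 0.04754) and Dic3 (adjusted p = 0.03706) were above the mean of the parents. That fit called 479 of 6047 genes in this comparison.

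None of the 7 tested axonemal genes passed in the mauritiana hybrid, and their differences ran between -0.60 and 0.43. Dic61B had 1.21, 0.89 and 1.86 there, against 1.24, -0.11, 1.05 and 1.16 in mauritiana and 2.33, 2.30 and 1.73 in simulans. Its values overlapped those of mauritiana and, by 1 array, simulans (-0.16, 95% interval -0.99 to 0.67). Dnali1 had 1.60, 2.62 and 2.58 in the hybrid, against 1.45, 1.71, 2.35 and 3.16 in mauritiana and 2.62, 2.67 and 2.11 in simulans, and differed by -0.05 (-0.93 to 0.82). Rsph3, with 1.23, 1.30 and 1.44 in the hybrid, was at the level of mauritiana (1.08, 1.35, 1.28 and 1.23) and above the simulans arrays (0.60, 0.66 and 0.37). Klp10A had 0.76, 1.01 and 1.47 in the hybrid, against 1.94, 2.30, 1.40 and 1.91 in mauritiana and 1.57, 1.40 and 1.45 in simulans. Its difference of -0.60 did not pass (-1.51 to 0.32).

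For none of the 16 genes were all mauritiana hybrid arrays below, or all above, both parents, against 1.63% and 4.68% of all genes. None lay outside both parents by test either, where 0.764% of all genes did. Of the 20 axoneme assembly genes 1 was lower in this hybrid, Dpy-30L2, of a family with a conserved dimerisation motif (-2.52 ± 0.61, adjusted p = 0.0317), and Zmynd10 did not pass (1.31 ± 0.47, adjusted p = 0.1563). Over all tested genes 2.33% were called. In the other lists 0 genes were called in limma. Their smallest p-values were those of sw (-1.31 ± 0.47), nudE (-0.94 ± 0.38), tum (-1.10 ± 0.30), Miro (0.44 ± 0.30), dila (0.89 ± 0.41), Oseg1 (-0.73 ± 0.36), Cep97 (-0.79 ± 0.36) and tef (0.74 ± 0.33), a gene of chromosome pairing in male meiosis. Germline markers had medians of 0.84 to 1.53 on the mauritiana hybrid arrays, against 1.45 to 2.21 in mauritiana and 1.52 to 1.66 in simulans, and 0 of 8 were called. Of the 2 accessory gland markers 1, Acp53Ea, was higher in this hybrid (2.11 ± 0.43, adjusted p = 0.01112).

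The sechellia hybrid had 2 of 16 genes lower than the mean of its parents and 0 higher, against a background of 5.82% called and 4.78% lower, and both are motor or axoneme genes. Rsph1 had -0.39, 1.0 and -0.04 in the sechellia hybrid, against 1.03, 2.25 and 2.26 in sechellia and 1.72, 1.86 and 1.41 in simulans. All hybrid arrays were below all parental ones, the nearest by a narrow margin (-1.56 ± 0.37, SE, adjusted p = 0.01991). It was the only one of the 16 below both sechellia (-1.66, adjusted p = 0.01966) and simulans (-1.47, adjusted p = 0.02598), where 1.35% of all genes lay outside both parents. Klp10A had 0.93, 0.31 and -0.59 in the hybrid, against 0.64, 3.32 and 2.76 in sechellia and 1.57, 1.40 and 1.45 in simulans. The first sechellia array fell among the hybrid arrays, while the other 2 were high (-1.64 ± 0.45, adjusted p = 0.03583). Those 2 high values are means of spots that disagreed, 1.21 and 5.44 on sechellia array 2 and 5.16 and 0.36 on sechellia array 3.

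These calls rest on few arrays. Without array 2 of the sechellia hybrid, which stands apart, Rsph1 remained lower (-1.97, adjusted p = 0.004343) and Klp10A did not pass (-1.69, adjusted p = 0.05351). With the close pairs averaged, or with the spread of the arrays compared alone, 0 of 16 were called, and with 1 row per gene Klp10A was not. Without sechellia array 1 the count was 7, all lower: Rsph1, Klp10A, Dic61B, Dnali1, Klp59C, Rsph3 and Dic3. The calls over all 5107 genes then went from 297 to 1246. Leaving out simulans 2, or array 1 or 3 of the hybrid, left 0 calls, and leaving out simulans 1 or 3 or sechellia 2 or 3 left Rsph1 alone. The calls of Rsph1 against sechellia and against simulans were both lost with the close pairs averaged. That against sechellia was also lost with quantile normalization, with the spread of the arrays compared alone, with 1 row per gene and without sechellia 2 or 3 or hybrid array 1 or 3, and that against simulans without simulans 1 or 2 or the same hybrid arrays.

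Several axonemal genes lay low in the sechellia hybrid without passing. Dnali1 had -0.12, 0.23 and 0.68 there, against -0.21, 1.24 and 1.35 in sechellia and 2.62, 2.67 and 2.11 in simulans. It was lower than simulans (-2.20 ± 0.50, adjusted p = 0.005955, with 13.6% of all genes called and 12.3% lower) and overlapped sechellia. Dic61B had 0.97, 0.28 and 0.70 in the hybrid, against 0.48, 2.45 and 2.09 in sechellia and 2.33, 2.30 and 1.73 in simulans. It too was lower than simulans (-1.47 ± 0.47, adjusted p = 0.04162). Rsph3 had 0.32, 0.14 and -0.33 in the hybrid, against 0.36, 1.70 and 2.25 in sechellia and 0.60, 0.66 and 0.37 in simulans. Its hybrid arrays were the lowest, the nearest by a narrow margin, and it was lower than sechellia (-1.39 ± 0.37, adjusted p = 0.02223, with 11.4% of all genes called and 6.01% lower). The 1.70 and 2.25 include clone 2 spots that disagreed, -0.91 and 5.46 on sechellia array 2 and -0.18 and 5.12 on sechellia array 3. Clone 2 gave no value on hybrid array 2, so the arrays do not average the same rows. With the close pairs averaged, none of these calls against a single parent was made. That of Dic61B was also lost with the replicate block (-1.47, adjusted p = 0.05793), with 1 row per gene and without simulans 1 or 2 or any hybrid array. That of Rsph3 was also lost with quantile normalization, with the spread of the arrays compared alone and without sechellia 2 or 3 or hybrid array 1 or 3. Rsph1 and Rsph3 were the only 2 of the 16 with every hybrid array below both parents, against 3.25% of all genes, and 0 of 16 had every array above them, against 4.11%.

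The remaining members gave wide intervals in the sechellia hybrid. Dic3 had 0.18, 0.89 and 1.11 in the hybrid, against 1.07, 2.81 and 2.42 in sechellia and 2.23, 2.32 and 1.95 in simulans (-1.40, adjusted p = 0.07305). Klp67A, with -0.34, 0.11 and 0.33 in the hybrid, differed by -0.19 (95% interval -0.80 to 0.42). Klp59C had -0.64, -0.42 and -1.22 and differed by -1.0 (adjusted p = 0.105). Over all tested genes 5.82% were called in this hybrid and 4.78% were lower. Among the related genes, 3 of 20 axoneme assembly genes were lower, Zmynd10 (-2.23 ± 0.48, adjusted p = 0.01178), Tektin-C (-1.84 ± 0.40, adjusted p = 0.01178) and Tektin-A (-1.91 ± 0.50). So were mil (-2.21 ± 0.38, adjusted p = 0.002625) and Cdlc2 (-1.52 ± 0.41, adjusted p = 0.03522) of 10 dynactin and cofactor genes, and Cep97 (-1.64 ± 0.37, adjusted p = 0.01551) of 7 centriole genes. Of the other kinesins tum (-1.15 ± 0.35) and mud (-1.51 ± 0.59), and of the transport genes Mks1 (-1.06 ± 0.40) and tctn (-1.37 ± 0.82), had the smallest p-values and did not pass, nor did the centriole gene asl (1.29 ± 0.49). Germline markers had medians of -0.12 to 0.59 on the sechellia hybrid arrays, against -0.44 to 1.68 in sechellia and 1.52 to 1.66 in simulans, and 2 of 8, soti and dj, were lower. Of the other markers the muscle gene Act88F was lower and the gut gene LManVI higher. Their part in the lower axonemal levels was not tested.

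**Figure D5:**
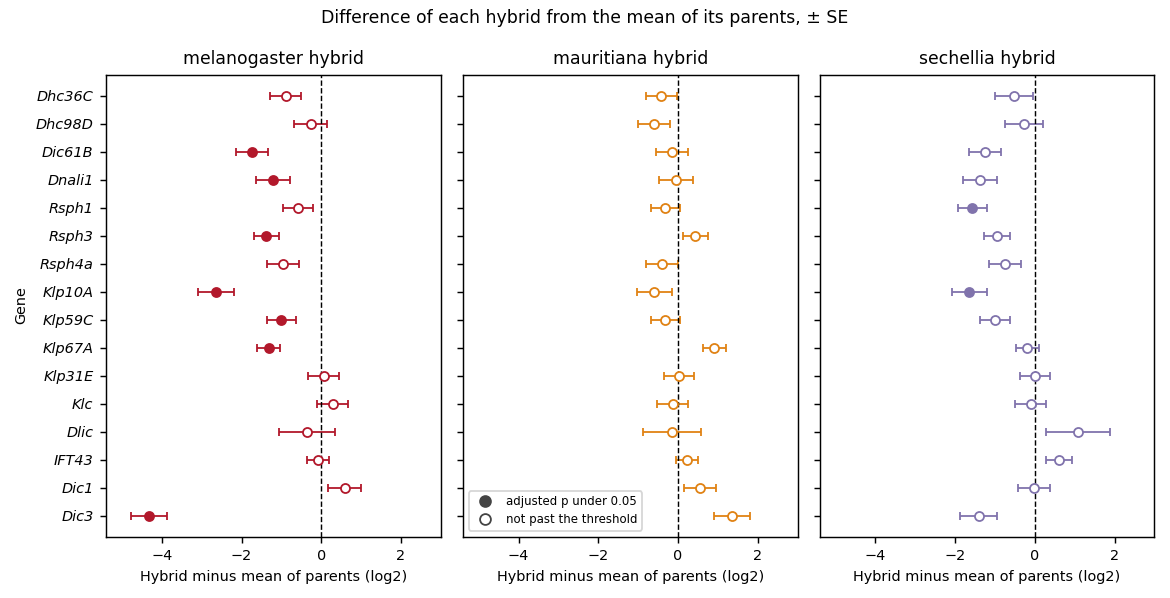
Hybrid minus the mean of its parents on the log2 scale (x axis, ± SE) for the 16 tested genes (y axis) in each of the 3 hybrids (panels), with filled points where the adjusted p was under 0.05. The melanogaster hybrid has 7 filled points, all left of 0, the mauritiana hybrid has none, and the sechellia hybrid has 2, Rsph1 and Klp10A.

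The hybrids share the simulans arrays as a parent, so their effects are given side by side and their differences were tested directly. Set against the mauritiana hybrid, the melanogaster hybrid had 4 of 16 genes lower and 0 higher, 3 of 14 without the carriers, where 26.2% of all genes were called and 18.2% lower. They were Klp67A (-1.74 ± 0.34, SE, adjusted p = 0.0004633), Rsph3 (-1.65 ± 0.37, adjusted p = 0.001906), Klp10A (-1.73 ± 0.52, adjusted p = 0.01562) and Dic3 (-6.05 ± 0.53, adjusted p = 5.453e-08). In each of them the 3 arrays of the melanogaster hybrid lay below the 3 of the mauritiana hybrid. The call for Klp10A was lost with 1 row per gene (adjusted p = 0.1695) and without array 2 of the melanogaster hybrid or array 3 of the mauritiana hybrid. For Dhc98D the order was the reverse on every array, 0.84, 0.79 and 1.40 in the melanogaster hybrid against 0.76, -0.13 and 0.38 in the mauritiana hybrid, but the difference of 0.68 did not pass (adjusted p = 0.345).

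The change against the mean of the parents was also compared between hybrids, and the shares of all genes given with it count both directions. It was lower in the melanogaster than in the mauritiana hybrid for 5 of 16 genes, Dic3, Klp67A, Rsph3, Klp10A and Dic61B, where 23.0% of all genes were called. Of these, Klp10A was lost with 1 row per gene (adjusted p = 0.1432). Dic61B was lost with the close pairs averaged and without melanogaster 1 or 2, melanogaster hybrid 1 or 3 or mauritiana hybrid 3. Against the sechellia hybrid it was lower for 2, Dic3 and Klp67A (14.5% called). That of Klp67A was lost without centring, with exact zeros as missing, with the close pairs averaged and without melanogaster 1 or 2, any melanogaster hybrid array or sechellia hybrid 2 or 3. Between the mauritiana and sechellia hybrids it differed for Dic3, which was higher in the mauritiana hybrid (4.50% called). This was lost with the close pairs averaged and without mauritiana hybrid 2 or 3.

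Over the 7 groups, the 14 tested motor, axoneme and transport genes had their lowest mean in the melanogaster hybrid 6 times and in the sechellia hybrid 3 times, and their highest in melanogaster 5 times. The same counts over all genes were not made, so these are not read as particular to the members. Neighbouring levels in such orders mostly lie within their spread: for Rsph1 the means of mauritiana (1.52 ± 0.24, SD, n = 4), simulans (1.67 ± 0.23, n = 3) and melanogaster (1.61 ± 0.05, n = 3) did not differ by test. Klc, IFT43, Dlic and Klp31E were called in none of the comparisons above in the fit over all arrays. Dlic had an unadjusted p under 0.05 between sechellia and melanogaster, where its mean rests on a value of -5.16 on 1 sechellia array, and IFT43 between the sechellia hybrid and simulans.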

How the data were processed

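Testis RNA labelled with Cy5 was hybridised with whole-male RNA labelled with Cy3 on 22 arrays in 1 dye order, per the labels' protocols, so a dye bias that differs between genes was not balanced. The values are the authors' deposited log ratios per array row, read here as log2. Their log base and direction are inferred from the titles and from the low values of markers of other organs, and scanner, background correction, normalization and filter are not given in the sources used here. The deposited array medians ran from -0.82 to 0.75. With no intensities, signal over background is not known. An array had 13019 to 27648 values of 27648.

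Row symbols came from GEO's platform annotation, which can be old: 15116 rows had 1 symbol, 102 had several and 12430 are not listed there and unnamed here. The median of the rows with 1 symbol was subtracted from each array, and rows of a gene were averaged. Group means over all 22 arrays were fitted with limma 3.58.1 in R 4.3.3, with empirical Bayes moderation, 2-sided tests and Benjamini-Hochberg adjustment over 5107 genes at 0.05. Precision is limited by the number of arrays. The members and lists were chosen with earlier results of these data known, and no p-value here is independent support for a pattern shown before.

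Values on every array are given, by rule, for the up to 6 members with the smallest adjusted p per comparison, or the 2 smallest p where none passed, for members outside both parents, and for members called repeatedly. Related lists are represented by the 2 smallest p. Other genes named in a sentence were chosen after their values were seen.

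Replicate numbers recur in all groups. Deviations from the group means correlated between same-numbered arrays above 0.1 in 20 of 63 pairs (median 0.04, range -0.33 to 0.37), and all 3 pairs of a pair of groups exceeded it for simulans with melanogaster only. The numbers were therefore taken as pairs in that comparison alone, with a block in a fit of its 6 arrays added after seeing the data. Deviations of differently numbered arrays were not correlated, so this check cannot show that the numbers mark pairs. Alternatives were no centring, quantile normalization, spread from the arrays compared alone, a fit without sechellia, array weights, genes on every array, 1 row per gene, exact zeros as missing, averaged close pairs, a replicate block and each array left out. A fit without sechellia and its hybrid was also added after seeing the data.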

Additional observations from a re-analysis of the deposited data

Results flagged for a closer look

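In mauritiana, the group with 4 arrays, 14 genes had a value on every array and were searched for an array far from the others. Of these, 3 had one, where chance gives about 1 in 20 for a single gene. The genes share the same 4 arrays, and the share over all genes was not computed. The count of 3 is therefore not read as an excess. For Dic61B the lowest array, mauritiana 2, had -0.11, against 1.05 to 1.24 on the others. For Klc the highest, mauritiana 4, had 0.94, against -0.27 to -0.12, and for Rsph1 the same array had 1.88, against 1.38 to 1.41.

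The effect of hybridisation (hybrid minus the mean of its parents) was compared between hybrids for 16 genes in 3 pairs, and 8 of 48 differences were called in limma. Over all genes 23.0%, 14.5% and 4.50% were called in the 3 pairs, in either direction. Between the melanogaster and mauritiana hybrids, where 23.0% of all genes were called, 5 genes had the lower effect in the melanogaster hybrid. They were Dic3 (-5.69, adjusted p = 6.374e-07), Klp67A (-2.23, adjusted p = 0.0001397), Rsph3 (-1.81, adjusted p = 0.002219), Klp10A (-2.05, adjusted p = 0.01114) and Dic61B (-1.59, adjusted p = 0.02966). The last was lost with the close pairs averaged and without melanogaster 1 or 2, melanogaster hybrid 1 or 3, or mauritiana hybrid 3. For Dic3 and Klp67A the effects had opposite signs, -4.33 and -1.32 in the melanogaster hybrid and 1.36 and 0.90 in the mauritiana hybrid.

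Between the melanogaster and sechellia hybrids, where 14.5% of all genes were called, Dic3 (-2.92, adjusted p = 0.002074) and Klp67A (-1.14, adjusted p = 0.04765) had the lower effect in the melanogaster hybrid. The call for Klp67A was lost in 10 of 21 alternatives, among them leaving out melanogaster 1 or 2, any melanogaster hybrid array, or sechellia hybrid 2 or 3. Between the mauritiana and sechellia hybrids, where 4.50% were called, Dic3 had the higher effect in the mauritiana hybrid (2.77, adjusted p = 0.01077), which was lost with the close pairs averaged and without mauritiana hybrid 2 or 3. All 3 hybrids share the simulans arrays.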

How the results depend on the processing

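Over all alternatives, 1041 values of single genes kept their direction, and 883 also their side of the threshold. In the melanogaster hybrid against the mean of its parents, Dic3, Klp10A, Klp67A, Rsph3 and Dic61B were called in every alternative run, and leaving out 1 array gave 5 to 7 of the 16. With melanogaster testes against whole males it gave 9 to 10, in sechellia against melanogaster 2 to 4, in the melanogaster hybrid outside both parents 3 to 4 and against the mauritiana hybrid 3 to 4. Over all genes it gave 1212 to 1576 calls in the melanogaster hybrid against the mean of its parents. In melanogaster testes it gave 1617 to 1825, and in sechellia against melanogaster 1162 to 2090. For simulans against melanogaster, 0 calls became 3 with the spread of those arrays alone, 1 without the sechellia arrays, 8 with array weights, 1 without sechellia and its hybrid and 5 with the replicate block on those arrays alone. Over all genes, 54 calls became 925, 185, 2884, 275 and 1411 in the same order. For mauritiana against melanogaster, 0 became 1 with quantile normalization, 2 without the sechellia arrays, 4 with array weights, 2 without sechellia and its hybrid, and 0 to 1 with an array left out (Klp67A without mauritiana 2). Over all genes, 339 calls became 567, 824, 1864 and 1142 in the same order, and 499 without mauritiana 2. For mauritiana against simulans, 0 became 3 with quantile normalization, 2 with those arrays alone, 2 without sechellia arrays, 5 with array weights, 2 over genes on every array, 3 without sechellia and its hybrid, and 0 to 1 with an array left out (Dic3 without mauritiana 1). Over all genes, 563 calls became 1194, 1008, 1110, 2049, 591 (of 3021 genes) and 1356 in the same order, and 376 without mauritiana 1. For sechellia against melanogaster, 3 became 1 with those arrays alone and 1 with close pairs averaged, where 1722 calls over all genes became 726 and 1021. For the mauritiana hybrid, 0 calls against the mean of its parents became 1 without sechellia arrays, 3 with array weights, 2 without sechellia and its hybrid, and 0 to 1 with an array left out (Klp67A without hybrid array 1). Over all genes, 119 calls became 363, 827 and 479 in the same order, and 223 without hybrid array 1. Outside both parents, 0 became 1 with array weights. For the sechellia hybrid, 2 calls became 7 without centring, 6 with quantile normalization, 0 with those arrays alone, 7 with array weights, 5 over genes on every array, 0 with close pairs averaged, and 0 to 7 with an array left out. Over all genes, 297 calls became 874, 907, 1, 1161, 337 (of 3021 genes) and 8 in the same order. With an array left out they were 69 to 1246. Outside both parents, 1 call became 4 without centring, 0 with quantile normalization, 0 with those arrays alone, 3 with array weights, 0 with 1 row per gene, 0 with close pairs averaged, and 0 to 4 with an array left out (4 without sechellia 1, and 0 without simulans 1 or 2, sechellia 2 or 3, or hybrid array 1 or 3). For the melanogaster hybrid outside both parents, 4 became 7 with quantile normalization, 9 with those arrays alone, 10 with array weights and 2 with close pairs averaged, and against the mauritiana hybrid 4 became 8 with array weights. For the alternatives, counts over all genes outside both parents, and between the melanogaster and mauritiana hybrids, are not given here. Those member counts are therefore not set against a background. The cause of these moves was not tested. With the replicate block over all arrays the melanogaster hybrid had 8 calls against the mean of its parents and 6 outside both, and the sechellia hybrid 3, while the other counts were as in the fit without it. The block ended the calls of Klp67A in the mauritiana hybrid against mauritiana (1.06, adjusted p = 0.0823) and of Dic61B in the sechellia hybrid against simulans (-1.47, adjusted p = 0.05793). Without centring the median of all genes moved by -0.41 in the sechellia hybrid, -0.27 in the mauritiana hybrid, -0.20 in the melanogaster hybrid, 0.27 in sechellia against melanogaster and -0.15 in melanogaster testes. With quantile normalization it moved by 0.29 in sechellia against melanogaster and 0.10 between the melanogaster and mauritiana hybrids.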

Other observations

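Klc and Klp31E were called in no comparison in the fit over all arrays. Klc had 0.54, -0.01 and 0.26 in the melanogaster hybrid, -0.84, -0.07 and 0.49 in the mauritiana hybrid and -0.33, 0.10 and -0.77 in the sechellia hybrid. Klp31E, by contrast, was at or below 0.02 on every hybrid array, with -0.12, -0.27 and -0.43 in the melanogaster hybrid, -0.22, -0.49 and -1.01 in the mauritiana hybrid and -0.69, 0.02 and -0.35 in the sechellia hybrid. The 4 untested genes had a single value each in the sechellia hybrid, on array 3: 1.73 for Dhc16F, 1.45 for IFT46, 0.36 for Klp68D and 1.03 for Klp98A. Each of these exceeded every value of the same gene in simulans. In the mauritiana hybrid Dhc16F had 0.26, -0.06 and -1.89, IFT46 -0.56, -0.42 and -1.41, Klp68D -0.02, -0.80 and -0.55, and Klp98A 0.03, -0.22 and -0.74. For Dhc16F, IFT46 and Klp98A the third array was the lowest.

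The 2 clones of Rsph3 gave different levels in most groups. Clone 1 averaged 1.88 in the mauritiana hybrid, 1.86 in mauritiana, 0.99 in simulans and 2.04 in melanogaster, and clone 2 averaged 0.77, 0.40, 0.10 and 1.11 in the same groups. In sechellia the order was the reverse, with 1.17 for clone 1 and 1.70 for clone 2. There the 2 spots of clone 2 disagreed on every array, most on array 2 (-0.91 and 5.46), so this order is not interpreted. Duplicate spots of the members differed most for Rsph4a on melanogaster array 2 (2.76) outside sechellia and for Rsph3 (6.37) within it.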
